A study of Homo sapiens with 6 samples.

Results

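The 53 genes described here make up the TGF-beta and BMP signalling pathways, namely 18 ligands, 11 receptors and co-receptors, 8 SMADs, 4 ID genes and 12 antagonists and other modulators. They were taken by symbol from a table of 60546 gene identifiers, and all 53 were found. The table holds RNA sequencing of 6 libraries that the study describes as HCT-116, a mismatch repair-deficient colorectal carcinoma line. Of these, 3 are labelled GOLPH3 (replicates 1, 2 and 3, with P8, P12 and P13 in their titles) and 3 are labelled Vector (replicates 1, 2 and 3, with P12, P11 and P13). GOLPH3 is a Golgi phosphoprotein, and the study compared stable lines selected with puromycin after receiving the PMSCV vector with the GOLPH3 insert or the empty vector. By the study's account, all 6 libraries therefore share the vector backbone and the selection, and all cells were grown in DMEM with fetal bovine serum. The labels give a wild type genotype for each. The study describes the samples of a group as different generations of the same stable line. The p-values then measure the spread between generations of a line and not between separately made lines. What the P numbers stand for is not stated in the labels.

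Ligands of this family bind pairs of type I and type II receptor serine/threonine kinases, which phosphorylate receptor SMADs that then enter the nucleus with SMAD4. TGF-beta, activin and nodal ligands act mainly through SMAD2 and SMAD3, and BMP ligands mainly through SMAD1, SMAD5 and SMAD9. SMAD6 and SMAD7 inhibit the pathway, the ID genes are classical BMP targets, and secreted proteins such as noggin, chordin and follistatin trap ligands outside the cell. In the colon, BMP signals are known for opposing stem cell renewal in the crypt, and TGF-beta for restraining epithelial growth. HCT-116 is known for carrying frameshift mutations in TGFBR2.

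Each value below is a normalized read count, the number of reads assigned to a gene divided by a scaling factor of its library, as the authors deposited it. The libraries held 15708846 to 21900764 reads, and 3 reads, the limit used here for a gene close to silence, equal 2.47 to 3.29 normalized reads. The transcript of GOLPH3 itself was not higher in the libraries labelled GOLPH3. It had 1630, 1272 and 1383 normalized reads there against 1968, 1892 and 1472 in the libraries labelled Vector (log2 fold change -0.31, limma adjusted p = 0.609). The groups are therefore named by their labels throughout. Epithelial EPCAM, CDH1, KRT8, KRT18 and KRT19 were abundant in both groups, while KRT20, an intestinal keratin, was at 0 in all 6 libraries. Of 14 colon epithelial genes, 11 were tested. KRT18 and KRT19 rose under the GOLPH3 label and none fell (background 0.953% higher, 4.12% lower). The list's summed level, most of it KRT8, KRT18 and KRT19, was 62852 to 134427 against 30048 to 41165 normalized reads. VIL1, CDX1, CEACAM5, GPA33, TFF3 and LGALS4 had at most 10 reads in any library. CDX2 had means of 289 and 499 normalized reads under the GOLPH3 label and Vector, and CEACAM6 of 2.14 and 9.33, both with overlap. The libraries labelled Vector also carried genes known from HEK293 cells, an embryonic kidney-derived line. Of a list of 10 such genes (IRS4, UCHL1, NEFL, NEFM, INA, PAX2, LIN28B, HAND1, CDH2 and VIM), written with earlier results of these data known, 8 of the 9 tested fell in the libraries labelled GOLPH3. Its summed level was 144 to 157 normalized reads there, most of it PAX2, against 5326 to 14176 in the libraries labelled Vector, and IRS4, UCHL1, NEFM and HAND1 were at 0 in every library labelled GOLPH3. Of 10 fibroblast and 8 endothelial genes, 7 of each were tested, PDGFRA fell and none rose, and DCN was at 0 in all 6 libraries. The epithelial and HEK293 sums did not overlap between the groups, and their part in the group differences below was not tested.

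Among the 50 members that passed the filter on low values, 6 fell under the GOLPH3 label and none rose (limma, adjusted p under 0.05 over all 26536 genes tested). The 6 were the ligands BMP2 and GDF6, the type I receptor BMPR1B, the BMP receptor SMAD SMAD9, the BMP target ID4 and the follistatin-like glycoprotein FSTL1. They make up 12% of the members tested, where 5.07% of all genes tested passed in either direction, 4.12% lower and 0.953% higher. At an unadjusted p under 0.05, 16 members were lower and 5 higher, and the background was 10.1% lower and 7.51% higher. The groups did not overlap for 22% of all genes tested. Among the members, 16 did not overlap with lower values under the GOLPH3 label (32% of those tested, background 12.8%) and 4 with higher values (8%, background 9.2%). The median log2 fold change of the 50 members was -0.47, against 0.016 over all genes tested. Of the 50, 31 were negative, where 49.1% of all genes tested were. Set against the Vector mean of each gene, the members' median was -0.081, -0.647 and -0.518 in GOLPH3-labelled replicates 1, 2 and 3. It was -0.078, -0.328 and 0.274 in Vector replicates 1, 2 and 3, so these medians overlapped between the groups. GDF6 and BMPR1B had no read in any library labelled GOLPH3 and passed the filter only through the Vector group. Without them 4 of 48 members were called, 14 were lower without overlap (29.2%), and the median log2 fold change was -0.45. BMP5, kept among these 48, reached 1 normalized read in only 1 library labelled GOLPH3 and so also passed through the Vector group. The shares over all genes were not recomputed without such genes. With 1 normalized read required in every library, 4 of 45 members and 405 of 18996 genes were called. In these bulk samples fewer cells that make a transcript and less transcript per cell cannot be told apart.

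**Figure D1:**
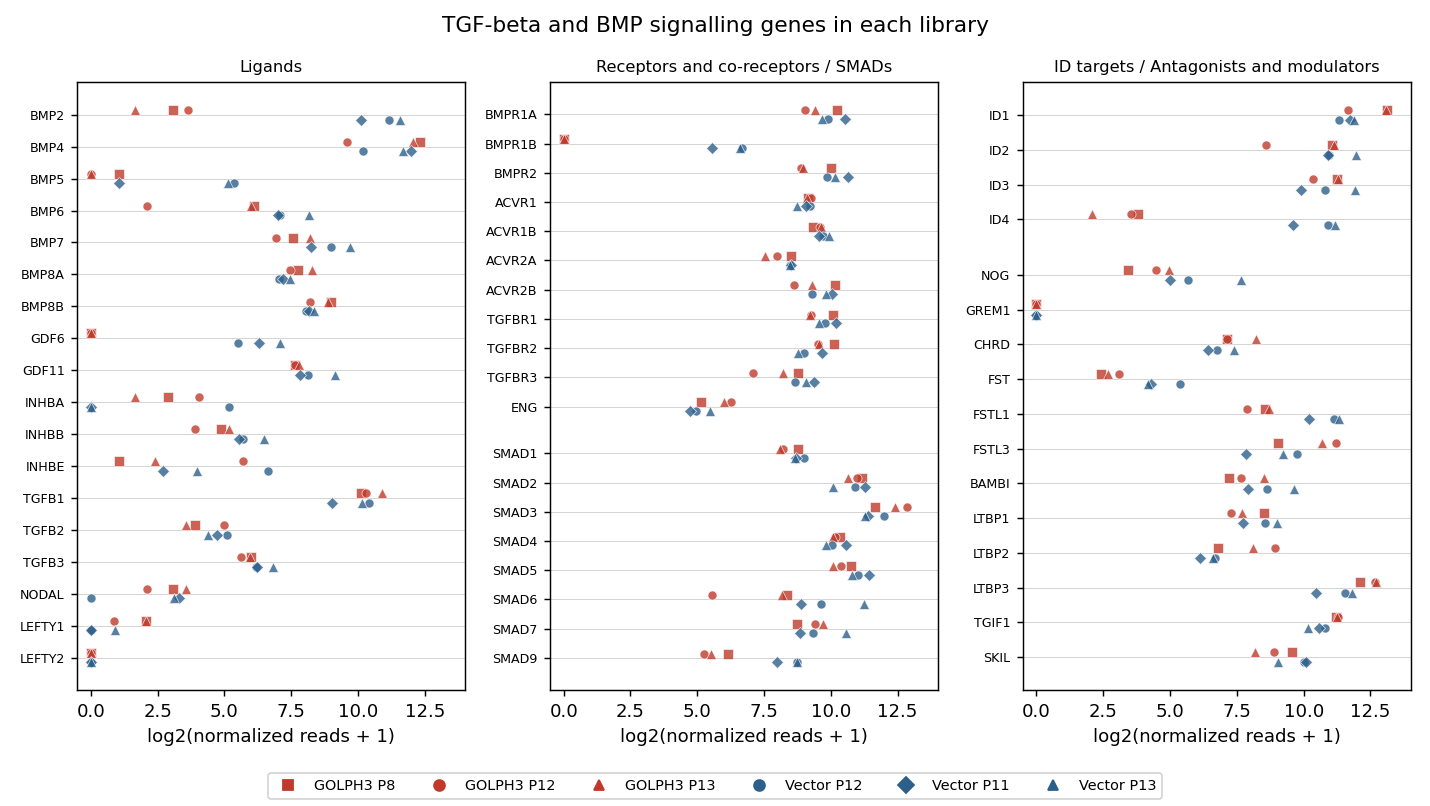
All 53 members in the 6 libraries, as log2(normalized reads + 1) on the horizontal axis, red for libraries labelled GOLPH3 and blue for Vector, with the marker shape giving the P number. BMP2, GDF6, BMPR1B, SMAD9, ID4 and FSTL1 show all 3 red points to the left of all 3 blue points.

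Promoter sequences are shown for ID4 and BMPR1B, which fell, and for ID1, the most abundant ID gene in both groups, so that the upstream windows of genes with unlike levels can be read side by side. Each is the 250 bases before the transcript start from RefSeq on GRCh38.p14, plus strand. Capitals mark TATAAA, the TATA box core read on the gene's strand, and CAGAC, a SMAD-binding core searched on both strands (the reverse complement is GTCTG). A GC-rich SMAD core of 6 letters that is its own reverse complement, GGCGCC, was also searched, and none of the 3 windows holds it. These searched letters do not overlap one another here.
ID4, chr6:19837120-19837369: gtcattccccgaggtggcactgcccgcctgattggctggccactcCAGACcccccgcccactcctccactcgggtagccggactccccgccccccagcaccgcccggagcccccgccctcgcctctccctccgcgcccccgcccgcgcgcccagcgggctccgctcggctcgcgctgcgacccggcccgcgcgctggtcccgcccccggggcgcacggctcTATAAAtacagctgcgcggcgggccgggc
ID1, chr20:31605039-31605288: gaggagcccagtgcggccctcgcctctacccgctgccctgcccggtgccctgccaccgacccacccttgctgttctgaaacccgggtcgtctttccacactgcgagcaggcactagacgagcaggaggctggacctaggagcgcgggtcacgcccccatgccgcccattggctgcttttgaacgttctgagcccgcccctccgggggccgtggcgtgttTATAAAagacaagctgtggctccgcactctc
BMPR1B, chr4:94757705-94757954: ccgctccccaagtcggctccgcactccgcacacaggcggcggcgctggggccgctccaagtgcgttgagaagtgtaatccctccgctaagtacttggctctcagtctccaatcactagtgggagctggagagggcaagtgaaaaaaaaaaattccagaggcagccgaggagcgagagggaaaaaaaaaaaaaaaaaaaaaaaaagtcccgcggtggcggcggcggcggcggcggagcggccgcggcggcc

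The ID4 window held 34 CpG dinucleotides, with TATAAA starting 29 bases and CAGAC 205 bases before the transcript start. The ID1 window held 19 CpG and a TATAAA starting 31 bases before the start, and the BMPR1B window shown, the one farthest upstream, held 24 CpG and none of the searched letters. RefSeq gives 2 further BMPR1B windows, and the one at chr4:94995590-94995839 holds 2 copies of the CAGAC core, counted on both strands. RefSeq windows were matched for 46 of the 53 members (83 windows), with no entry used for BMP2, BMP7, GDF6, INHBE, LEFTY1, LEFTY2 and NOG. TATAAA was in 9.64% of the members' windows and in 6.80% of all 35116, CAGAC in 38.6% and 38.0%, and GGCGCC in 22.9% and 16.4%. The median number of CpG was 23 in the members' windows and 11 in all. These matches describe letters in the windows and carry no measurement of binding.

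Of the 18 ligands, 2 fell, 14 were tested without a call and LEFTY1 and LEFTY2, nodal antagonists of the same family, had at most 3 reads in every library. BMP2, a bone morphogenetic protein (20:6767664-6780280 on GRCh38, plus strand), had 7.51, 11.5 and 2.13 normalized reads in GOLPH3-labelled replicates 1, 2 and 3 and 2296, 1113 and 3015 under the Vector label. The Vector library with the least BMP2 was still far above every library labelled GOLPH3. Its means were 7.06 ± 4.72 and 2141 ± 960 (SD, n = 3 each), a 303-fold lower level (log2 fold change -8.15, SE 0.55, 95% confidence interval -9.35 to -6.96, limma adjusted p = 3.34e-06). GDF6, a growth and differentiation factor of joints and the eye, had no read in the 3 libraries labelled GOLPH3 and 44.3, 76.7 and 136 normalized reads under the Vector label. Set against 3 reads per library, its level was at least 26.6-fold lower (limma adjusted p = 5.04e-05). The other members of the BMP branch went both ways without a call. BMP6 (log2 fold change -2.68, limma adjusted p = 0.123) and BMP7 (-1.41, adjusted p = 0.0952) did not overlap between the groups, with every library labelled GOLPH3 below every Vector library. GDF11, INHBB and TGFB3 were also lower without overlap, and BMP8A was higher without overlap (log2 fold change 0.60, limma adjusted p = 0.426). BMP8A shares 15.8% of its exon bases with PPIEL on the other strand. PPIEL had means of 214 and 213 normalized reads under the GOLPH3 label and Vector. Reads in that stretch cannot be told apart, as the strand setting of the counting is not stated. BMP5 separated the groups only by the libraries' scaling, with 1 read in replicate 1 labelled GOLPH3 and 1 read in Vector replicate 2. NODAL, the activin subunits INHBA and INHBE, TGFB1, TGFB2, BMP4 and BMP8B overlapped between the groups.

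Per kilobase of exon, BMP4 had the highest mean of the ligands, at 1105 ± 755 normalized reads per kilobase under the GOLPH3 label and 919 ± 487 under the Vector label (SD, n = 3 each). In the Vector group the mean of BMP2 was next, at 595 ± 267 per kilobase, and it overlapped with BMP4 and with TGFB1 at 312 ± 137. In the libraries labelled GOLPH3, the mean of TGFB1 was next at 442 ± 131 per kilobase, overlapping with BMP4, while BMP2 stood at 1.96 ± 1.31. In both P12 libraries TGFB1 was above BMP4 on this scale, so the order of these ligands is not settled in either group. BMP4 and BMP2, both ligands of the same type I receptors, thus had overlapping levels in one group and levels with no library in common in the other.

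Of the 11 receptors and co-receptors, all tested, 1 fell. BMPR1B, a type I BMP receptor (4:94757968-95158448, plus strand), had no read in any library labelled GOLPH3 and 101, 46.0 and 97.0 normalized reads under the Vector label. Against 3 reads per library this was at least 25.2-fold lower (limma adjusted p = 3.91e-05). BMPR1A, another type I receptor for BMPs, was at 809 ± 357 normalized reads under the GOLPH3 label and 1086 ± 361 under the Vector label (SD, n = 3 each, limma adjusted p = 0.564). BMPR2, a type II receptor for BMPs, had 1038, 472 and 491 normalized reads under the GOLPH3 label against 917, 1617 and 1139 under the Vector label. Replicate 1 labelled GOLPH3 lay above Vector replicate 1, so the groups overlapped (log2 fold change -0.94, SE 0.37, 95% confidence interval -1.73 to -0.14, limma adjusted p = 0.198). The receptors ACVR1, ACVR1B, ACVR2A and ACVR2B, the TGF-beta receptors TGFBR1 and TGFBR2, and the co-receptors TGFBR3 and ENG also overlapped between the groups. TGFBR2 transcript was present in every library, with 736 to 1108 normalized reads under the GOLPH3 label and 433 to 806 under the Vector label. Per kilobase of exon, BMPR1B was low even where it was read, at 12.9 ± 4.85 in the Vector group beside 95.2 ± 31.6 for BMPR1A (SD, n = 3 each).

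Of the 8 SMADs, all tested, SMAD9 fell and the other 7 were not called. This receptor SMAD of the BMP branch (13:36844831-36920765, minus strand) had 70.8, 37.1 and 44.8 normalized reads under the GOLPH3 label and 426, 250 and 427 under the Vector label. All 3 values of one group lay below all 3 of the other, and the means were 50.9 ± 17.7 and 367 ± 102 (SD, n = 3 each), 7.22-fold apart (log2 fold change -2.84, SE 0.40, 95% confidence interval -3.71 to -1.97, limma adjusted p = 0.000832). SMAD6, the inhibitory SMAD of the BMP branch, had 332, 46.2 and 285 normalized reads under the GOLPH3 label and 798, 477 and 2448 under the Vector label. These groups did not overlap either, but the spread within each was wide and the difference missed the threshold (log2 fold change -2.57, SE 0.72, 95% confidence interval -4.14 to -1.0, limma adjusted p = 0.0668). SMAD6 was under 0.05 in 7 of 15 alternative settings, with adjusted p from 1.3e-23 to 0.202. SMAD1 and SMAD5, which do the same work as SMAD9, had fitted log2 differences -0.43 and -0.68 (limma adjusted p = 0.533 and 0.260), and only SMAD5 was without overlap. SMAD2, SMAD4 and SMAD7 overlapped with log2 fold changes of 0.17, 0.04 and -0.29, and SMAD3 with 0.75 (limma adjusted p = 0.293). SMAD3 had the highest mean per kilobase of the SMADs in both groups, but SMAD5 was above it in Vector replicate 2, and SMAD6 and SMAD7 were above it in Vector replicate 3. In the Vector group SMAD9 stood at 64.2 ± 17.8 normalized reads per kilobase of exon, close to SMAD1 at 73.2 ± 10.1 and below SMAD5 at 244 ± 57.0 (SD, n = 3 each).

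**Figure D2:**
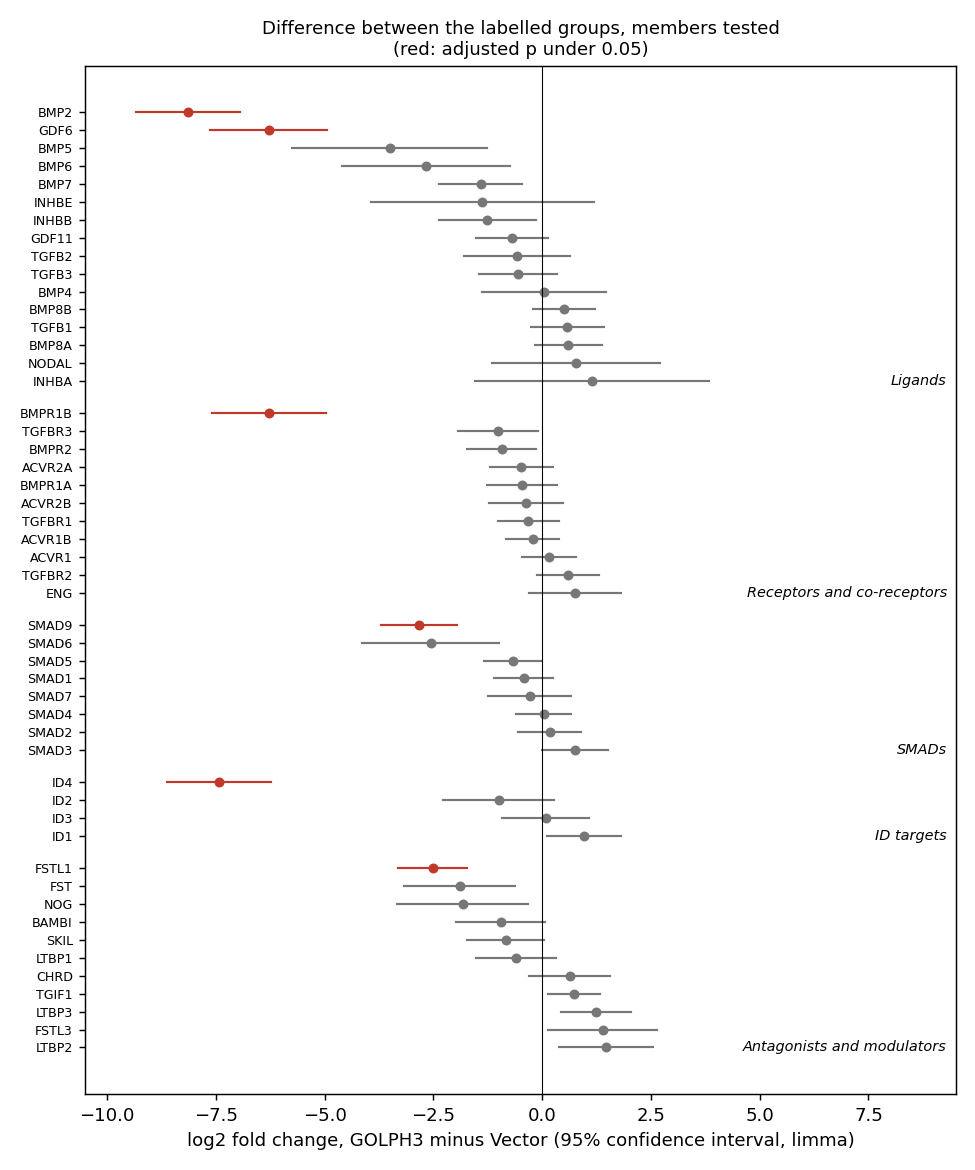
Fitted log2 fold change of each of the 50 members tested, libraries labelled GOLPH3 minus Vector, on the horizontal axis with its 95% confidence interval from limma, grouped by role. The 6 called members in red run from -8.15 for BMP2 to -2.52 for FSTL1, and 44 members in grey were not called.

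The 4 ID genes, inhibitors of basic helix-loop-helix factors, did not move together. ID4 (6:19837386-19840684, plus strand) had 12.9, 10.7 and 3.20 normalized reads under the GOLPH3 label and 1943, 767 and 2304 under the Vector label. Its means were 8.93 ± 5.08 and 1671 ± 804 (SD, n = 3 each), 187-fold apart (log2 fold change -7.42, SE 0.55, limma adjusted p = 6.46e-06). ID1 had 8901, 3265 and 8572 normalized reads under the GOLPH3 label and 2588, 3445 and 3816 under the Vector label. Replicates 1 and 3 labelled GOLPH3 were above every Vector library and replicate 2 was within their range (log2 fold change 0.96, SE 0.39, 95% confidence interval 0.12 to 1.80, limma adjusted p = 0.215). ID2 and ID3 overlapped between the groups, with fitted log2 differences -1.0 and 0.08 (limma adjusted p = 0.412 and 0.950). Per kilobase of exon, ID1 led in both groups at 5606 ± 2565 and 2662 ± 511 normalized reads, and ID4 was the lowest of the 4 at 3.81 ± 2.17 and 713 ± 343 under the GOLPH3 label and Vector (SD, n = 3 each). In the Vector group ID4 overlapped with ID2 and ID3 at that scale, so the order of those 3 is not resolved there.

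Among the 12 antagonists and modulators 1 fell, 10 were tested without a call, and GREM1, a secreted BMP antagonist, had no read in any library. FSTL1, a secreted follistatin-like glycoprotein (3:120392293-120451253, minus strand), had 374, 233 and 417 normalized reads under the GOLPH3 label and 2241, 1189 and 2583 under the Vector label. The means were 341 ± 96.1 and 2004 ± 727 (SD, n = 3 each), 5.87-fold apart without overlap (log2 fold change -2.52, SE 0.36, limma adjusted p = 0.000991). FSTL1 shares 3.62% of its exon bases with a gene on the other strand, AC063952.1, whose means were 2.69 and 12.5 normalized reads under the GOLPH3 label and Vector. The strand setting of the counting is not stated, so reads in that stretch cannot be told apart. LTBP3, which holds latent TGF-beta in the matrix, had 4380, 6561 and 6756 normalized reads under the GOLPH3 label and 2980, 1395 and 3594 under the Vector label. It was higher without overlap but missed the threshold (log2 fold change 1.23, SE 0.37, 95% confidence interval 0.43 to 2.04, limma adjusted p = 0.0850). LTBP2 and the nuclear repressor TGIF1 were likewise higher without overlap, with fitted log2 differences 1.46 and 0.73 (limma adjusted p = 0.134 and 0.182). The ligand traps NOG and FST were lower without overlap, with fitted log2 differences -1.82 and -1.90 (limma adjusted p = 0.184 and 0.0962). FST was sparse, at 4.29 to 7.42 normalized reads under the GOLPH3 label and 17.2 to 40.1 under the Vector label. CHRD, FSTL3, the pseudoreceptor BAMBI, LTBP1 and the SMAD repressor SKIL overlapped between the groups.

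**Figure D3:**
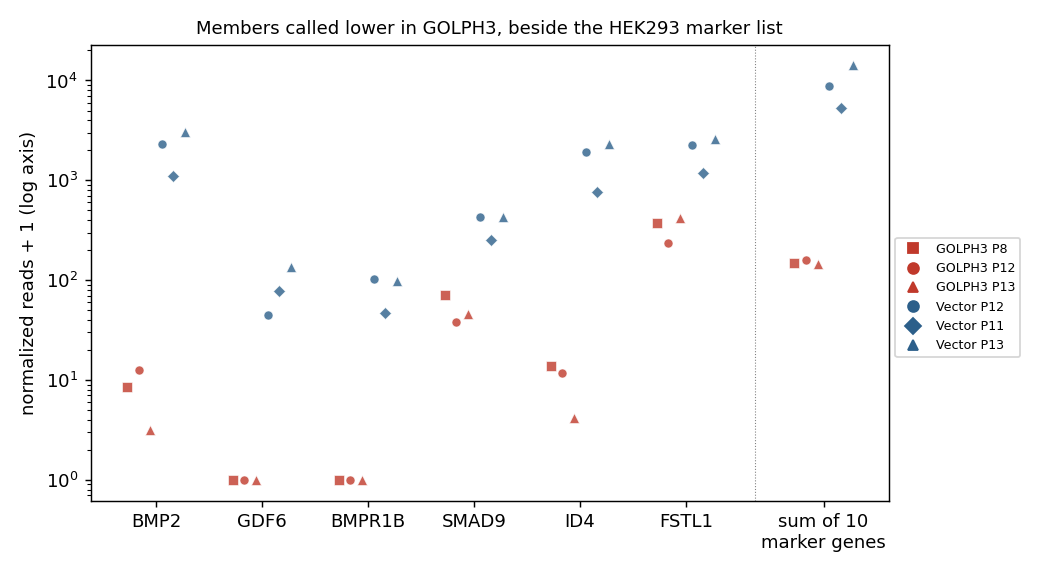
Normalized reads + 1 of the 6 called members in each library on a log axis, red for libraries labelled GOLPH3 and blue for Vector, with the marker shape giving the P number and the summed HEK293 list (10 genes) at the right. Vector replicate 2 holds the lowest Vector value for BMP2, BMPR1B, SMAD9, ID4 and FSTL1, and Vector replicate 1 that of GDF6.

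The titles carry P12 and P13 in both groups, so each called member could also be read within a P number, 1 library against 1 and therefore without a test. On the log2(normalized reads + 1) scale, the difference between the library labelled GOLPH3 and that labelled Vector was -7.52 at P12 and -9.91 at P13 for BMP2, and -7.37 and -9.10 for ID4. SMAD9 differed by -3.49 and -3.22, and FSTL1 by -3.26 and -2.63. GDF6 and BMPR1B, at 0 under the GOLPH3 label, differed by -5.50 and -7.09 and by -6.67 and -6.61, values that depend on the added 1. All 6 called members kept the lower value under the GOLPH3 label in both pairs. SMAD6 differed by -4.08 and -3.10.

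Replicate 2 labelled GOLPH3 and Vector replicate 1, both with P12, were then set against the other 4 libraries with the group in the same limma fit. No member passed at an adjusted p under 0.05, where 0% of all 26536 genes tested passed. At an unadjusted p under 0.05 there were 12 of the 50 members tested, against 7.24% of all genes (3.21% with lower values at P12). With edgeR also no member was called. DESeq2 called BMP4 and INHBE, but its share over all genes at P12 is not given here. These calls are therefore not read as an excess among the members. The following members were chosen after their values were seen. BMP4 had 763 and 1151 normalized reads in the P12 libraries and 3307 to 5145 in the other 4 (log2 fold change -2.15, SE 0.31, limma adjusted p = 0.20), and its difference between the labelled groups was 0.05. INHBE, the activin E subunit, had 51.1 and 97.8 normalized reads in the P12 libraries and 1.07 to 14.6 in the others (log2 fold change 3.64, SE 0.68, limma adjusted p = 0.216). Of the 50 members tested, both P12 libraries were below the range of the other 4 for 4 (BMP4, NODAL, ACVR2B and ID1, background 6.1%). They were above it for 4 of the 50 (INHBA, INHBE, TGFB2 and ACVR1, background 6.74%). Both counts were near these backgrounds. ID1 thus had its lowest values at P12 in each group. Each P12 arm holds 1 library of each label, so the P number and the individual library cannot be told apart within a label.

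**Figure D4:**
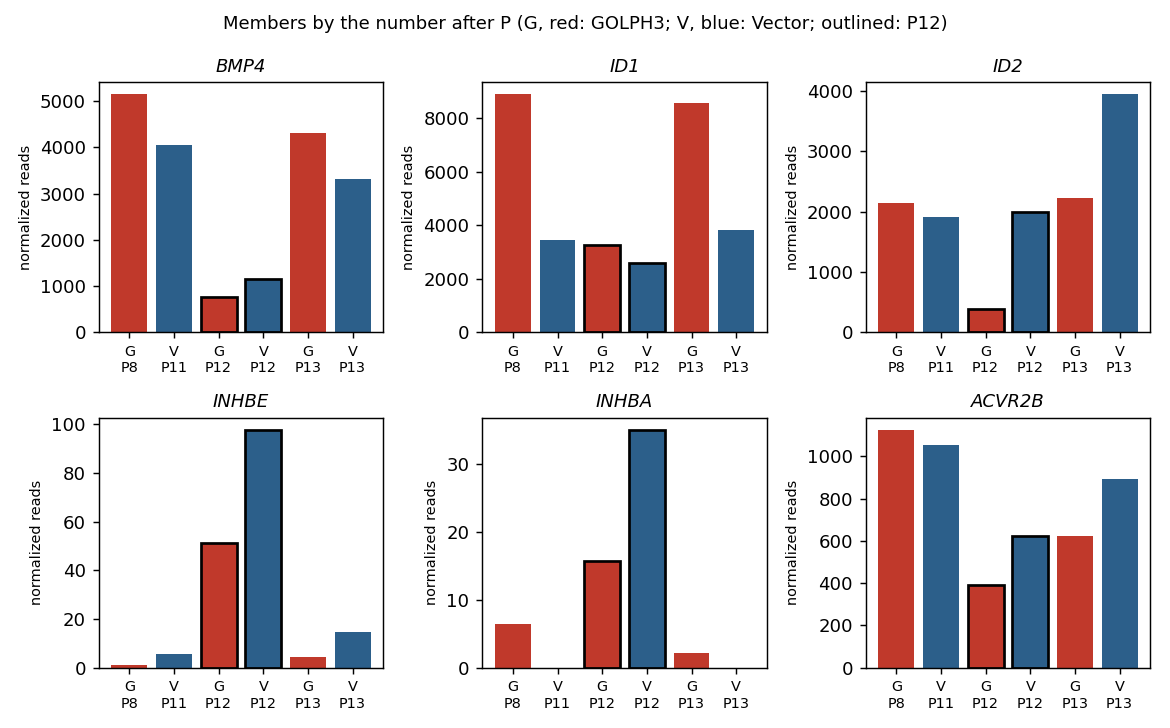
Normalized reads of BMP4, ID1, ID2, INHBE, INHBA and ACVR2B in each library, ordered by the number after P, red for libraries labelled GOLPH3 (G), blue for Vector (V) and outlined for P12, with 1 bar per library and no error bar. The P12 bars are the lowest for BMP4 (763 and 1151) and the highest for INHBE (51.1 and 97.8).

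A further list of pathway genes that were not members, 75 of which were found, was read in the same fit. Of the 62 tested, 4 fell and 1 rose (8.06%, background 5.07%), 57 were not called, and their median log2 fold change was -0.14. Of the 62, DLX5, CHRDL1, GDF10, INHA and BMP3 had no read in any library labelled GOLPH3 and passed the filter only through the Vector group. Without these 5 genes 2 fell and 1 rose among 57 (5.26%), with a median of -0.016. The background was not recomputed without such genes. BMPER, kept among the 57, reached 1 normalized read in only 1 library labelled GOLPH3. GDF7, a BMP-type ligand close to GDF6, had 3.22, 3.30 and 2.13 normalized reads under the GOLPH3 label and 87.5, 93.1 and 267 under the Vector label, 51.7-fold apart (log2 fold change -5.09, limma adjusted p = 0.000148). DLX5, a homeobox gene known as a BMP target, had no read under the GOLPH3 label and 57.6, 25.2 and 66.9 normalized reads under the Vector label (at least 15.5-fold lower against 3 reads per library, limma adjusted p = 0.000145). The BMP-binding proteins BMPER and CHRDL1 were lower too. BMPER had 0, 0.825 and 3.20 normalized reads under the GOLPH3 label and 163, 30.7 and 237 under the Vector label (limma adjusted p = 0.000851). CHRDL1 had no read under the GOLPH3 label and 16.5, 9.86 and 32.6 normalized reads under the Vector label (limma adjusted p = 0.00181). SMURF2, a ubiquitin ligase that acts on SMADs and receptors, was the gene that rose, with 6256, 6526 and 5153 against 2717, 3387 and 1876 normalized reads (2.25-fold, log2 fold change 1.2, SE 0.30, limma adjusted p = 0.0370). Its adjusted p ran from 2.2e-08 to 0.153 over 15 alternative settings and was under 0.05 in 7 of them.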

How the data were processed

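Total RNA of 6 samples described as HCT-116 was sequenced. The submitters' processing notes name fastp 0.20.0, HISAT2 2.1.0, Cufflinks, featureCounts 1.6.1, DESeq2 and GRCh38, without their roles. The annotation and the strand setting are not given in the sources used here. The authors deposited a signal per gene and library, which is reads divided by a size factor: 100% of the nonzero values in every library were whole multiples of 1 step, within 0.01 reads. Reads recovered this way were used for the count tests only. The 60590 rows held 60546 identifiers, and 44 second rows were added to the first. Each sample's group, GOLPH3 or Vector, was taken from its label. The 3 libraries of a group differed beyond counting noise and none was a duplicate.

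Values were tested as log2(value + 1) with limma 3.58.1 in R 4.3.3 (empirical Bayes with a trend, all 6 libraries), over the 26536 genes reaching 1 normalized read in 3 or more libraries, with Benjamini-Hochberg adjustment over all of them and a threshold of 0.05. Fold changes on this scale understate those of low genes. DESeq2 1.42.0 and edgeR 4.0.16 on recovered reads were alternatives, and edgeR called 1113 of 16908 genes, DESeq2 2047 and limma 1346. The code was tested on simulated data. The members, the other lists and the tests were chosen with earlier results of these data known. Members named with all values were those under the threshold and, in each role, the 2 with the smallest p if fewer passed. Coordinates are those of GENCODE 29 on GRCh38, which holds 58367 of the identifiers, and levels per kilobase were divided by the summed exon length. Deviations from the group means correlated at -0.23, -0.15 and 0.26 between libraries with the same replicate number, so the replicate numbers were not taken to pair the samples. The libraries with P12 correlated at 0.26, those with P13 (both replicate 3) at 0.26, and GOLPH3 P8 with Vector P11 at 0.33. Only 2 pairs share a P number and the labels do not say what it marks, so the P number was kept as an alternative block. The other alternatives were quantile normalization, no filter, a filter in every library, a pseudocount of 0.1, a replicate block, the P number as a block, P12 as a covariate and leaving out each library.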

Additional observations from a re-analysis of the deposited data

Results flagged for a closer look

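INHBA, the activin A subunit, went in opposite directions in the pairs with the same P number. On the log2(normalized reads + 1) scale, the library labelled GOLPH3 minus that labelled Vector was -1.11 at P12 and 1.65 at P13, with 15.7 against 35 normalized reads at P12 and 2.13 against 0 at P13. Each value rests on 1 library against 1, the P13 values are under 3 reads, and the difference was not tested.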

How the results depend on the processing

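BMP2, SMAD9, ID4 and FSTL1 were called lower under all 15 alternatives, and GDF6 and BMPR1B under the 11 that gave them a value. Their highest adjusted p values were 0.000329 for BMP2, 0.0136 for SMAD9, 0.000368 for ID4, 0.0117 for FSTL1, 0.00129 for GDF6 and 0.00119 for BMPR1B. The count of 6 of 50 members called in the comparison of the labels became 13 of 50 with DESeq2 (12 lower, 1 higher), which called 2047 of all 26536 genes. It became 33 of 50 when the P number was the block (26 lower, 7 higher), a fit that leaves 1 residual degree of freedom and calls 6082 genes in all. The members' count ranged from 4 to 11 on leaving out 1 library. It was 11 of 50 without GOLPH3 replicate 1, where 1528 of all 25192 genes passed. It was 4 of 48 without Vector replicate 1 or 3, where 459 of 24813 and 481 of 25152 genes passed. GDF6 and BMPR1B no longer passed the filter in those 2 fits. The other list's count of 5 of 62 became 1 of 49 with the filter in every library, where 405 of all 18996 genes passed. It became 9 of 62 with DESeq2 and 28 of 62 when the P number was the block. On leaving out 1 library it ranged from 2 to 8 (8 without GOLPH3 replicate 1, 3 without Vector replicate 1 or 2, 2 without Vector replicate 3). The P12 count of 0 became 2 with DESeq2, whose share over all genes at P12 is not given here. The P12 count did not change on leaving out 1 library, though leaving out a P12 library leaves only 1 at P12. With the replicate block, 8 members were called between the labels, where 1081 of all 26536 genes tested passed. The same block called 18 members at P12. That P12 fit leaves 1 residual degree of freedom, and its count is not set against all genes here. Libraries with the same replicate number deviated together for replicate 3 (correlation 0.26) and not for replicates 1 and 2 (-0.23 and -0.15). The cause of these shifts was not tested. The median of the members stayed negative throughout, from -0.633 to -0.327. No value changed sign past its threshold. Depth limits LEFTY1, LEFTY2 and GREM1, at or under 3 reads in every library.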
